A study of Mus musculus with 5 samples.

Results

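Chemokine receptors were followed as a set of 10 genes, Cxcr6, Ccr6, Ccr2, Ccr1, Ccr7, Ccr8, Ccr9, Ccr10, Cxcr3 and Cxcr4, chosen by name from the 27998 genes of the count matrices. All 10 were present in the 5 matrices and in the authors' table of cluster means. Each had transcripts in every library, except Ccr9, which had 0 in the Vγ6 cells of ear skin. The series profiled single γδ T cells, sorted by the Vγ chain of their receptor, with a droplet kit that tags each transcript with a unique molecular identifier (UMI).

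The 4 libraries compared came from C57BL/6 mice of 8 weeks. They were Vγ4 cells of ear skin (skin Vγ4) and Vγ6 cells of ear skin (skin Vγ6), of peripheral lymph nodes (lymph node Vγ6) and of thymus (thymus Vγ6). Skin pieces had been shaken with collagenase at 37 °C for 75 minutes. Thymus cells carrying CD4 or CD8 had been removed by antibody and complement over 30 minutes at the same temperature. The labels give no incubation for lymph nodes, so tissue and preparation cannot be told apart. A further library (pooled Vγ6) mixed lymph node cells of TcrdCreER mice, thymus cells of ACT-FLPe mice and ear cells of TcrdH2BeGFP mice, aged 8 to 10 weeks, without a record of which cell came from which tissue. Each group was 1 library, and how many mice went into it is not given in the sources used here. The spread between mice is therefore unknown, no p-values were computed and every interval covers counting error only.

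Chemokine receptors are G protein-coupled receptors with which leukocytes sense chemokine gradients, and those a T cell carries help decide which tissue it enters or stays in. γδ T cells that make IL-17 are known for Ccr6, the receptor for Ccl20, and Ccr2, a receptor for Ccl2, which serve homing to resting skin and entry into inflamed tissue. Ccr7 and Ccr9 sense chemokines of lymphoid tissue and thymic stroma, and Cxcr6 binds Cxcl16, a chemokine that also exists as a membrane protein.

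Of these genes, 5 lie on chromosome 9, where Ccr9, Cxcr6, Ccr1 and Ccr2 follow each other within 435.119 kb (build GRCm38, GENCODE vM21). Ccr9 (chr9:123678439-123784330, plus strand) ends 22.144 kb before Cxcr6 (chr9:123806475-123811760, plus strand) begins. Over the authors' 8 clusters these neighbours had opposite patterns, as given below, while Ccr2 (chr9:124101950-124113557, plus strand) and Ccr6 (chr17:8236043-8257141, plus strand), on another chromosome, went with Cxcr6. The promoters of these 4 genes are therefore shown, from 250 bases before to 50 bases after the start of the RefSeq gene model (GRCm38.p6), 5′ to 3′. For Ccr9 that start lies far inside the GENCODE model given above, so the window is not at the first base of that model. The windows are chr9:123806227-123806526 for Cxcr6, chr9:124101933-124102232 for Ccr2, chr17:8235793-8236092 for the upstream of 2 Ccr6 starts and chr9:123766961-123767260 for Ccr9, all on the plus strand, and capitals mark the motif matches described next.
Cxcr6: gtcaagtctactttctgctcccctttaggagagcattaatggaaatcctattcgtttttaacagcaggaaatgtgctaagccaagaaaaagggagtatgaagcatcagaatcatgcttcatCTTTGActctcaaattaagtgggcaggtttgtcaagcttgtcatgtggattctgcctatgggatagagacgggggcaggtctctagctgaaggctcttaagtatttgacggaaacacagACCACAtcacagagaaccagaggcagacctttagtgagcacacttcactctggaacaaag
Ccr2: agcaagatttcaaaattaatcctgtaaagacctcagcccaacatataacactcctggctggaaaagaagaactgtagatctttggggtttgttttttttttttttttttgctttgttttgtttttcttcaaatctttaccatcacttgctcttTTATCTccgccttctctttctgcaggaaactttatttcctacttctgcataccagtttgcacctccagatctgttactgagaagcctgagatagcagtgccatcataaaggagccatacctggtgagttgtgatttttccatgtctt
Ccr6: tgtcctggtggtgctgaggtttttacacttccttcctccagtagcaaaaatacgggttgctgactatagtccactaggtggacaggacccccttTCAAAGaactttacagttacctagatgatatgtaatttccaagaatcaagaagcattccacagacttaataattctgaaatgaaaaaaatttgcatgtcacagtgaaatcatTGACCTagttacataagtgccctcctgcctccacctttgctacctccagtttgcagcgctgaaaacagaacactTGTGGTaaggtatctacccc
Ccr9: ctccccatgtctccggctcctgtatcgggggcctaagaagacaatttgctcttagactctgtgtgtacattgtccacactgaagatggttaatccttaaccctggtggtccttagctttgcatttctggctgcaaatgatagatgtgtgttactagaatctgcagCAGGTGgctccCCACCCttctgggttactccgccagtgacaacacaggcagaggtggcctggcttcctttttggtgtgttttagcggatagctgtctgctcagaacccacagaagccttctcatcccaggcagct

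The windows were searched on both strands for 10 short motifs, and positions count from the start base as 0 and give the first letter of a match. A RUNX motif (TGTGGT, or ACCACA on the other strand) stood at -10 in the Cxcr6 window and at 30 in that of Ccr6, and is found in 16.8% of the 32851 promoters of the table. The Ccr6 window held the RORE core AGGTCA, as TGACCT, at -44, a motif of 16.3% of all promoters. TCF/LEF letters (CTTTGA, in 16% of promoters) stood at -129 in the Cxcr6 and at -156 in the Ccr6 window, and a GATA motif (AGATAA, 11.2%) at -97 in that of Ccr2. Neither a RUNX nor a RORE match was in the Ccr9 or the Ccr2 window, and the Cxcr6 window had no RORE match. RUNX matches were also in the windows of Ccr1 and Cxcr3. Of the 8 receptors searched, TCF/LEF letters were in 2, Cxcr6 and Ccr6, and the RORE core in 1, Ccr6. Whether the motifs relate to the expression patterns was not tested. The Ccr9 window held an E-box CAGGTG (20.2%) at -85 and the KLF motif CCACCC (31.5%) at -74. AP-1 (TGANTCA, in 7.81% of promoters), CRE (TGACGTCA, 1.79%), T-box (AGGTGTGA, 1.28%) and kappaB (0.0883%) motifs were in none of the 9 windows of 8 receptors. The E-box and T-box letters overlap in AGGTG, and such matches only describe the letters. Promoters of Ccr7 and Ccr10 were not in the table.

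Kept cells numbered 687 in the smallest library and 2517 in the largest, with 793463 to 6607432 UMIs in all, and the markers of the sorted cells were there: all 12 genes of the γδ T17 list, such as Cd3e, Maf and Il23r, were above 3 UMIs in every library. A Cd3 UMI was found in 82.5% of skin Vγ4, 83.1% of skin Vγ6, 93.9% of pooled, 99.5% of thymus and 99.7% of lymph node cells. The median share of UMIs from mitochondrial genes was 5.95% and 5.97% in the skin libraries and 3.66% to 4.70% elsewhere. Barcodes over the 10% limit on that share numbered 216 in skin Vγ4, 120 in skin Vγ6, 32 in thymus, 12 in the pool and 2 in lymph node. Cell quality thus differed between skin and the other tissues. Pairs of libraries shared 0 to 9 cell barcodes, at most 0.617% of the smaller one. Markers of other cells were uneven: keratinocyte genes summed to 1751 counts per 1000000 UMIs (CPM) in skin Vγ4 and 66.3 to 268 CPM elsewhere. In skin Vγ4, 10 of these 11 genes were above 3 UMIs, among them Lgals7 (264 CPM) and Krt14 (249 CPM), and Krt1 was at 0. The γδ T17 list summed to 3033 CPM in that library. Genes of the dendritic list summed to 1829 CPM in lymph node Vγ6, 1558 CPM in the pool and 260 to 844 CPM in the others, with Clec9a at 0 throughout and Cd209a at 0 in all but the pool. Their part in the receptor values was examined for lymph node below.

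Receptor transcripts as a whole took 3103 CPM in skin Vγ6, 2783 CPM in lymph node Vγ6, 2710 CPM in the pool, 2064 CPM in skin Vγ4 and 833 CPM in thymus Vγ6. Since the kit counts transcript ends, CPM can be set side by side between genes without a length correction. Cxcr6 made up 80.0% of the receptor UMIs in skin Vγ4, 81.7% in skin Vγ6, 73.6% in lymph node Vγ6 and 69.8% in the pool, but 42.6% in thymus. There Ccr9 took 20.4%, Ccr7 15.997% and Ccr2 13.9%, so the thymus cells had the lowest total and the most even mix.

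**Figure D1:**
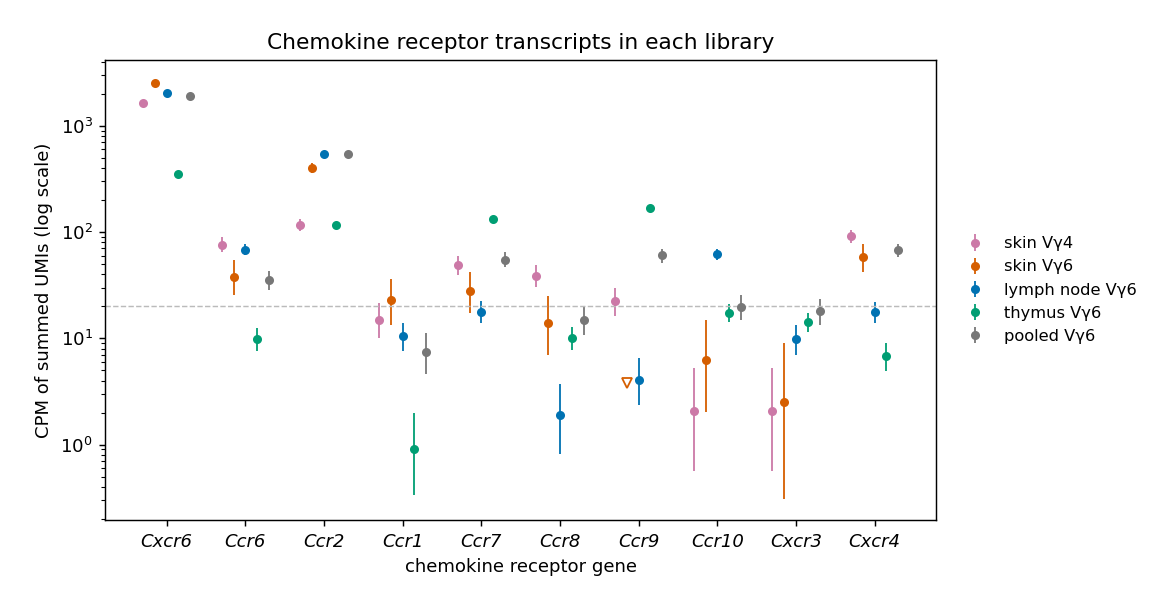
Level of each receptor gene in each library, in CPM on a log axis, with exact 95% Poisson intervals (counting error only); the open triangle is the limit of 3 UMIs for Ccr9 in skin Vγ6, where no UMI was found, and the dashed line is 20 CPM. Cxcr6 is the highest gene in every library, and thymus Vγ6 (green) is lowest for Cxcr6, Ccr6, Ccr1 and Cxcr4 and highest for Ccr7 and Ccr9.

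Cxcr6 was the most abundant receptor in all 5 libraries. It stood at 1651 CPM (95% interval 1594 to 1709) in skin Vγ4, 2536 CPM (2426 to 2649) in skin Vγ6, 2048 CPM (2005 to 2092) in lymph node Vγ6, 355 CPM (341 to 370) in thymus Vγ6 and 1891 CPM (1841 to 1941) in the pool. Neighbours in the order from skin Vγ6 down to thymus did not overlap by counting error. The order of skin Vγ6 and lymph node turned under other settings. The ratio was 0.928 (0.856 to 1.005) after thinning and 0.843 (0.796 to 0.892) without dividing cells. It was 0.967 (0.920 to 1.02) without cells carrying markers of other types. Of the 331 lymph node cells left out for such markers, only 5 had no Cd3 UMI. A Cxcr6 UMI was found in 97.3% of lymph node, 86.5% of skin Vγ6, 81.0% of skin Vγ4, 73.9% of pooled and 40.0% of thymus cells. Because depth differs, each cell was also thinned to 500 UMIs, and the shares became 70.4%, 66.9%, 53.1%, 53.3% and 15.3% in the same order. Lymph node cells with the gene held 6.08 UMIs on average and up to 71, against 2.33 and up to 13 in thymus. Cells with markers of another type and no Cd3 UMI numbered only 2 to 21 per library, with median depths of 1013.5 to 1637 UMIs. Cxcr6 was seen in 3 of 7 of these in skin Vγ4, 1 of 2 in skin Vγ6, 2 of 5 in lymph node, 0 of 4 in thymus and 4 of 21 in the pool. These numbers are too small to set a background of free RNA. Cxcr6 lies whole inside Fyco1 on the other strand, and whether the counting used strand is not given in the sources used here. Reads on Fyco1 itself were 6.36 to 21.2 CPM, far under those on Cxcr6.

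Ccr2 followed Cxcr6 in the Vγ6 cells outside the thymus. It was at 117 CPM (102 to 133) in skin Vγ4, 398 CPM (356 to 445) in skin Vγ6, 543 CPM (521 to 566) in lymph node Vγ6, 115 CPM (107 to 124) in thymus Vγ6 and 542 CPM (516 to 570) in the pool. Lymph node and pool did not differ by counting error, nor did skin Vγ4 and thymus. After thinning, 27.0% of lymph node, 22.1% of pooled, 16.8% of skin Vγ6, 6.60% of thymus and 5.29% of skin Vγ4 cells had a Ccr2 UMI, against 69.9%, 43.2%, 32.6%, 19.9% and 15.1% without it.

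Ccr6 was much scarcer and did not follow the order of Ccr2. Its level was 76.04 CPM (64.2 to 89.4) in skin Vγ4 and 68.2 CPM (60.5 to 76.5) in lymph node Vγ6, which overlapped. It was 37.8 CPM (25.5 to 54.0) in skin Vγ6 and 35.1 CPM (28.7 to 42.6) in the pool, which overlapped too, and 9.84 CPM (7.59 to 12.5) in thymus Vγ6. Unthinned shares of cells were 11.2%, 17.1%, 4.22%, 4.89% and 2.46% in that order of libraries, and thinned shares 3.33%, 4.73%, 2.23%, 1.79% and 0.437%.

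Ccr1, a receptor for Ccl3 and Ccl5, was rare everywhere. It had 29 UMIs in skin Vγ4 (15.001 CPM), 18 in skin Vγ6 (22.7 CPM), 44 in lymph node Vγ6 (10.4 CPM), 6 in thymus Vγ6 (0.908 CPM, interval 0.333 to 1.98) and 22 in the pool (7.43 CPM). Only the thymus stood apart from every other library by its interval.

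Ccr7, which binds Ccl19 and Ccl21 and guides cells into lymph nodes, was highest in thymus. The values were 49.1 CPM (39.8 to 60.1) in skin Vγ4, 27.7 CPM (17.4 to 42.0) in skin Vγ6, 17.8 CPM (14.0 to 22.3) in lymph node Vγ6, 133 CPM (125 to 142) in thymus Vγ6 and 55.1 CPM (46.9 to 64.2) in the pool. Lymph node cells were the lowest, although their interval overlapped that of skin Vγ6. Thinned shares were 6.36% in thymus, 2.90% in skin Vγ4, 2.20% in the pool, 1.48% in skin Vγ6 and 0.274% in lymph node, where 4.12% had held a UMI before thinning.

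Ccr9, the receptor for Ccl25 of thymic and gut epithelium, gave the widest range. It stood at 170 CPM (160 to 180) in thymus Vγ6, 60.1 CPM (51.6 to 69.6) in the pool, 22.2 CPM (16.1 to 30.0) in skin Vγ4 and 4.04 CPM (2.35 to 6.46) in lymph node Vγ6. In skin Vγ6 there were 0 UMIs, with an interval up to 4.65 CPM, and 0 of 687 cells, with an interval up to 0.536%. Skin Vγ6 cannot be told from lymph node at this depth. Thymus cells held a Ccr9 UMI in 28.7% of cases and in 7.75% after thinning. The GENCODE model of Ccr9 overlaps the same-strand RNA gene Gm17200 and Lztfl1 on the other strand, and Lztfl1 was at 75.6 CPM in skin Vγ6, where Ccr9 had no UMI.

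Cxcr4, the receptor for Cxcl12, was lowest in thymus, where Ccr9 was highest. It was at 91.0 CPM (78.1 to 106) in skin Vγ4, 67.2 CPM (58.2 to 77.2) in the pool, 58.0 CPM (42.4 to 77.3) in skin Vγ6, 17.6 CPM (13.8 to 22.1) in lymph node Vγ6 and 6.81 CPM (4.97 to 9.11) in thymus Vγ6. Pool and skin Vγ6 overlapped. Thinned shares were 4.70%, 3.23% and 1.93% in the first 3 of these, and 0.274% and 0.318% in lymph node and thymus, too close to 1 UMI for an order.

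Among the receptors linked to skin, Ccr8, which senses Ccl1 and Ccl8, was highest in skin Vγ4 at 38.8 CPM (30.5 to 48.6). The pool had 14.9 CPM (10.8 to 19.9), skin Vγ6 13.9 CPM (6.92 to 24.8) and thymus 9.99 CPM (7.73 to 12.7), which overlapped each other, and lymph node 1.90 CPM (0.820 to 3.74) from 8 UMIs. Ccr10, which senses Ccl27 and Ccl28 of epithelia, had its peak outside the skin. It was at 61.7 CPM (54.5 to 69.7) in lymph node Vγ6, 19.6 CPM (14.9 to 25.3) in the pool and 17.4 CPM (14.4 to 20.9) in thymus Vγ6, against 5 UMIs in skin Vγ6 (6.30 CPM, 2.05 to 14.7) and 4 in skin Vγ4 (2.07 CPM, 0.564 to 5.30). Ccr10 lies inside Cntnap1 on the other strand, which had 1.35 to 3.56 CPM.

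Cxcr3, the receptor for Cxcl9 and Cxcl10 known from type 1 T cells, was scarce. The pool had 17.9 CPM (13.4 to 23.4), thymus Vγ6 14.1 CPM (11.4 to 17.2) and lymph node Vγ6 9.74 CPM (6.99 to 13.2). Skin Vγ6 had 2 UMIs (2.52 CPM) and skin Vγ4 had 4 (2.07 CPM). Neighbours in this order overlapped, but both skin libraries lay under thymus and pool.

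To compare libraries, a gene reaching 20 CPM in either library was called when its CPM differed at least 2-fold and the exact conditional binomial 95% interval of the ratio left out 1. The 3 comparisons among Vγ6 libraries share libraries, so they are not independent. As a whole, skin Vγ6 sat low against lymph node and thymus but not against skin Vγ4. The median log2 ratio over all tested genes was -0.38 for skin Vγ6 over lymph node and -0.27 for skin Vγ6 over thymus. It was -0.13 for thymus over lymph node and -0.05 for skin Vγ4 over skin Vγ6. With trimmed mean of M values (TMM) factors these medians were 0.05, 0.0047, 0.0036 and 0.02.

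Between skin Vγ6 and lymph node Vγ6, Cxcr6, Ccr2, Ccr6 and Ccr7 differed by less than 2-fold. Of 7 receptors above 20 CPM in either library 2 were called higher in skin and 1 lower, beside 16% and 30.4% of the 5770 genes tested (46.4% in either direction), so the receptors were called about as often as genes in general. Cxcr4 was 3.30-fold higher in skin (2.23 to 4.83) and Ccr1 2.17-fold (1.18 to 3.83), while Ccr10 was 9.80-fold lower (4.15 to 30.4). The ratios of Cxcr6, Ccr2, Ccr6 and Ccr7 were 1.24 (1.18 to 1.30), 0.733 (0.650 to 0.825), 0.555 (0.367 to 0.809) and 1.56 (0.921 to 2.53). Under the limit of 20 CPM, Ccr8 had a ratio of 7.30 (2.67 to 20.9) and Cxcr3 one of 0.259 (0.0303 to 0.997), and Ccr9 had 0 UMIs in skin and 17 in lymph node. TMM factors brought Ccr7 to 2.01 (1.19 to 3.27), a call, and turned the split over all genes to 23.7% higher and 20.2% lower. After thinning, Ccr1 was at -0.47 on the log2 scale against 1.12, Ccr7 was called at 2.44 and Ccr6 at -1.11.

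Other genes of the pathway were taken from lists chosen by function. Of 3 further chemokine receptors above the limit 2 were higher in skin, among them Ccrl2 (7.35-fold, 3.40 to 16.3), with a list median of 1.72 on the log2 scale. Ligands were few, 3 higher of 4: Ccl20, at least 29.1-fold by its interval since lymph node had 0 UMIs, Cxcl16, at least 21.9-fold likewise, and Cxcl10 (9.80-fold, 4.79 to 21.0). The skin Vγ6 library thus held transcripts of the ligands of Ccr6 and Cxcr6 at 27.7 and 21.4 CPM. Of 12 other migration receptors 6 were lower and 2 higher, with the integrin gene Itgb1 7.67-fold lower (5.46 to 11.1), Itga4 19.98-fold lower (3.51 to 796, from 1 UMI in skin) and Cd69, which retains lymphocytes in tissue, 6.60-fold higher (5.92 to 7.36). The 17 signalling genes gave 3 higher, among them Rgs2 (10.6-fold, 8.81 to 12.7) and Rgs1 (7.81-fold, 7.07 to 8.63), which dampen G protein signals, and Gna13 (5.10-fold, 4.26 to 6.10), and 5 lower. Regulators were 4 higher and 2 lower of 11, with Klf2, known as an activator of lymphocyte egress genes, 16.6-fold lower (11.96 to 23.7), Rora 5.78-fold higher (5.17 to 6.46) and Foxo1 3.04-fold higher (2.04 to 4.48).

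Thymus Vγ6 cells differed from lymph node Vγ6 cells in every receptor tested. Of 6 receptors 2 were called higher in thymus and 4 lower, beside 11.8% and 11.3% of 5703 genes, or 23.1% together. Ccr9 was 42.1-fold (26.2 to 72.5) and Ccr7 7.48-fold (5.90 to 9.60) higher. Cxcr6 was 5.77-fold (5.51 to 6.04), Ccr6 6.93-fold (5.28 to 9.22), Ccr2 4.70-fold (4.33 to 5.11) and Ccr10 3.55-fold (2.84 to 4.46) lower. The 4 receptors under the limit had ratios of 0.0869 for Ccr1 (0.0303 to 0.205), 5.26 for Ccr8 (2.52 to 12.7), 1.45 for Cxcr3 (0.991 to 2.14) and 0.388 for Cxcr4 (0.261 to 0.569). Among other migration receptors, 1 higher and 3 lower of 13, the integrin gene Itgb1 was 6.43-fold (5.70 to 7.26) and the leukotriene receptor gene Ltb4r1 6.16-fold (5.39 to 7.06) lower. Signalling genes were 2 higher and 3 lower of 17, with Rgs2 17.1-fold (14.7 to 20.03) and Gna13 3.54-fold (3.09 to 4.06) higher and Arrb1 3.24-fold lower (2.27 to 4.67). Regulators gave 2 higher and 2 lower of 11: among them Maf was 6.93-fold lower (6.28 to 7.67) and Foxo1 3.58-fold higher (2.79 to 4.64). No further chemokine receptor and no ligand was called, of 1 tested in each list. Of the genes called in either direction, 50.98% were higher in thymus, and 59.8% with TMM factors.

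Skin Vγ6 cells against thymus Vγ6 cells gave 5 receptors higher and 2 lower of 7, beside 13.7% and 24.5% of 5656 genes, 38.2% together (18.7% and 17.3% with TMM factors). The higher ones were Cxcr6 (7.14-fold, 6.73 to 7.59), Ccr6 (3.84-fold, 2.41 to 6.01), Ccr2 (3.45-fold, 3.02 to 3.94), Cxcr4 (8.51-fold, 5.52 to 13.1) and Ccr1 (24.98-fold, 9.50 to 76.9, from 18 and 6 UMIs). Ccr7 was 4.80-fold lower (3.15 to 7.70) and Ccr9 at least 36.5-fold lower by its interval. The Ccr1 call ended after thinning (log2 ratio 1.16). In the pathway lists, 2 of 3 further receptors were higher, among them Ccrl2 (3.75-fold, 2.02 to 6.69). Ligands higher in skin were Cxcl16 (142-fold, 22.2 to 5916, from 1 UMI in thymus) and Ccl20 (22.9-fold, 9.82 to 59.5), of 4 tested. Of 13 other migration receptors 3 were higher and 6 lower, with Cd69 10.5-fold higher (9.43 to 11.7) and Itga4 32.1-fold lower (5.71 to 1271, from 1 UMI in skin). Signalling genes were 1 higher, Rgs1 (6.03-fold, 5.54 to 6.55), and 2 lower of 16, Vav1 (3.86-fold, 1.84 to 9.71) and Rac2 (3.34-fold, 2.90 to 3.88). Regulators were 3 higher and 1 lower of 11, with Maf 8.31-fold (7.31 to 9.45) and Rora 4.89-fold (4.44 to 5.39) higher and Klf2 10.4-fold lower (7.46 to 14.8).

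The 2 skin libraries shared tissue and digestion and differed in the sorted Vγ chain. Of 8 receptors 3 were higher in skin Vγ4 and 1 lower, beside 4.26% and 3.18% of 4973 genes, or 7.44% together. Ccr8 was 2.80-fold (1.48 to 5.84), Ccr6 2.01-fold (1.35 to 3.09) and Ccr9 at least 4.58-fold higher by its interval, and Ccr2 3.41-fold lower (2.86 to 4.06). The Ccr6 ratio sat at the 2-fold limit and lost its call after thinning, at 0.62 on the log2 scale. The Ccr9 ratio, taken against 3 UMIs in skin Vγ6, lost its call with a mean over cells (2.29 on the log2 scale). Cxcr6 (0.651, 0.616 to 0.689), Ccr7 (1.77, 1.11 to 2.96), Cxcr4 (1.57, 1.13 to 2.22) and Ccr1 (0.661, 0.355 to 1.26) were not called, although thinning brought Ccr7 to 1.05 and Cxcr4 to 1.36 on the log2 scale, both calls. Skin Vγ4 also held the keratinocyte markers given above: 27 of its cells had at least 3 of them and held 1.13% to 3.16% of the UMIs of Cxcr6, Ccr6, Ccr2, Ccr7, Ccr8, Ccr9 and Cxcr4. Without cells carrying markers of other types the 4 calls stood. Of the lists, Cx3cr1 (5.34-fold, 1.96 to 20.3) was higher in skin Vγ4 among 4 further receptors. Ligands gave 2 higher and 1 lower of 5: Ccl20 at 145 and 27.7 CPM (5.22-fold, 3.38 to 8.47), Ccl27a (9.44-fold, 3.10 to 46.9, uncertain since several rows carry its symbol) and Ccl5, with 1 UMI in skin Vγ4 against 231 CPM in skin Vγ6 (446-fold lower, 79.03 to 17706). Keratinocyte genes summed to 1751 CPM in skin Vγ4 and 268 CPM in skin Vγ6. Whether the ligand transcripts came from the sorted cells or from keratinocytes was not tested. Migration receptors gave Ptger4 (2.99-fold, 1.35 to 7.81) and S1pr1 (2.18-fold, 1.27 to 3.99) higher and Ltb4r1 2.50-fold lower (1.55 to 4.05) of 12, and regulators Klf2 2.54-fold higher (1.78 to 3.72), Zbtb16 6.23-fold (2.78 to 15.3) and Ahr 2.54-fold (1.39 to 4.64) lower of 11. None of 15 signalling genes was called.

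**Figure D2:**
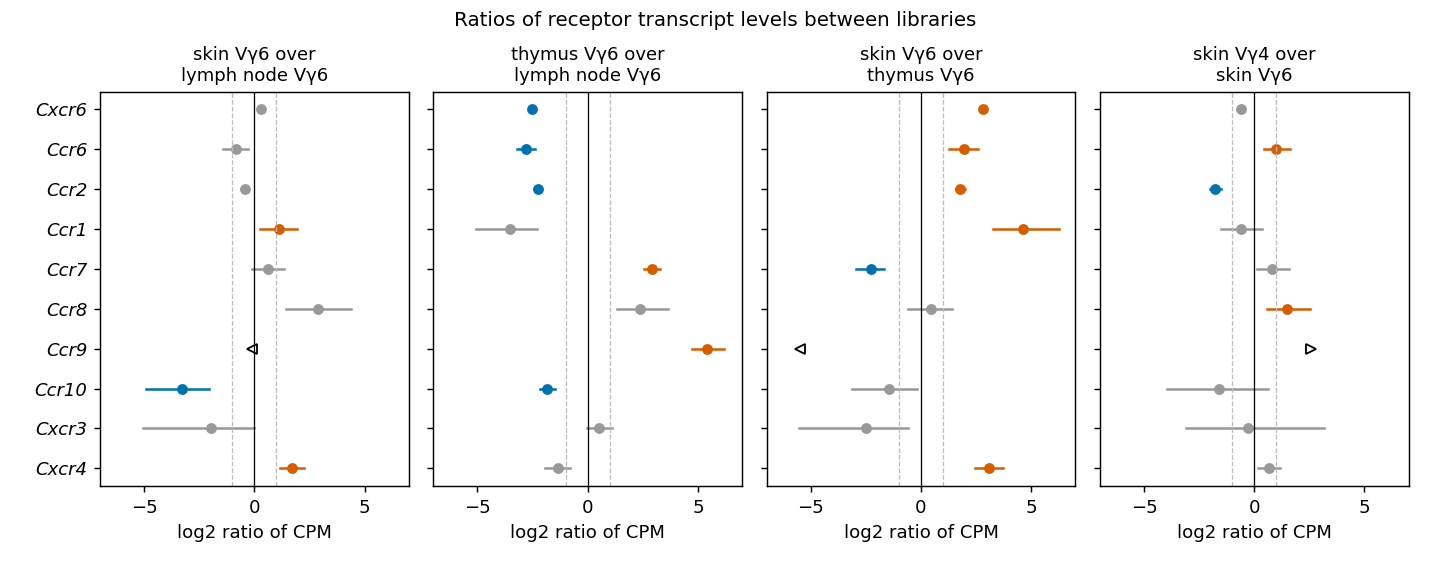
Log2 ratio of CPM for each receptor in the 4 comparisons, with exact conditional binomial 95% intervals (counting error only). Orange marks a call higher in the first library, blue a call lower and grey no call. Open arrows are ratios against 3 UMIs for a library with 0 UMIs, and dashed lines mark 2-fold. Cxcr6, Ccr6 and Ccr2 lie left of 0 for thymus over lymph node and right of 0 for skin Vγ6 over thymus, and Ccr7 and Ccr9 on the other side.

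The share of cells with several receptors differed between libraries at matched depth. After thinning to 500 UMIs, 26.7% of lymph node Vγ6 cells had UMIs of 2 or more receptor genes, 19.0% of pooled, 15.7% of skin Vγ6, 10.2% of skin Vγ4 and 5.32% of thymus Vγ6 cells. No receptor was seen in 66.8% of thymus cells, against 21.2% in lymph node. Cxcr6 and Ccr2 came together in 20.4% of lymph node cells, where the product of their shares was 19.0%, and in 11.1% of skin Vγ6 cells, with a product of 11.2%. In thymus they came together in 2.78% (2.17 to 3.50) of cells, above the product of 1.006%. The pool was above its product too, at 14.97% (13.4 to 16.6) against 11.8%. Skin Vγ4 had 3.42% (2.45 to 4.62) against 2.81%, within its interval. Cxcr6 met Ccr9 in 0.477% (0.247 to 0.831) and Ccr7 in 0.397% (0.191 to 0.729) of thymus cells, under the products of 1.18% and 0.970%. Ccr7 and Ccr9 met in 0.477%, close to their product of 0.492%. In thymus cells, Cxcr6 was thus seen with Ccr2 more often, and with Ccr9 or Ccr7 less often, than the products of the shares.

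**Figure D3:**
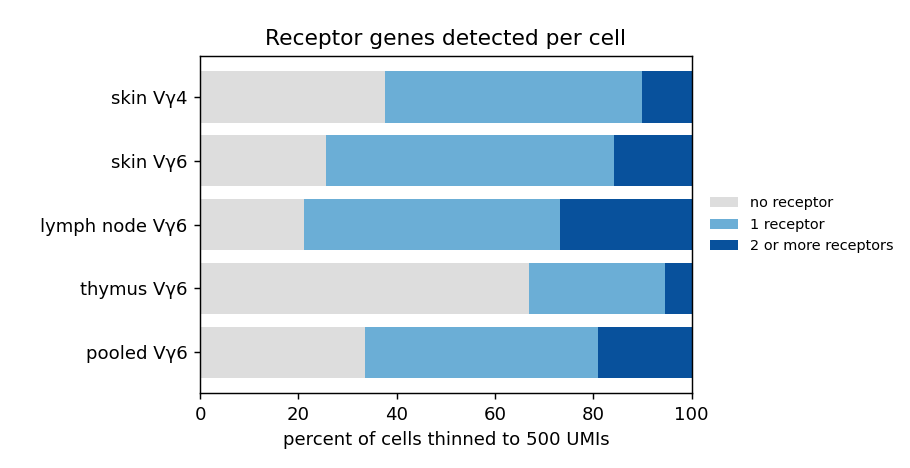
Percent of cells with UMIs of no receptor gene, 1 or at least 2 of the 10, in cells thinned to 500 UMIs, by library. Thymus Vγ6 has the longest bar without a receptor (66.8%) and lymph node Vγ6 the longest with at least 2 (26.7%).

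Thymus cells were also split by genes outside the set. By Cd163l1 alone, the 881 cells with a UMI were higher in Cxcr6 (4.18-fold, 3.82 to 4.58), Ccr6 and Ccr2 and lower in Ccr7 than the 1636 without, 4 calls beside 3.65% of genes, of which that of Ccr6 ended after thinning (ratio 5.76 before and 4.95 after). Cd163l1, a scavenger receptor gene of IL-17-producing γδ T cells, was seen without the granzyme gene Gzma in 564 cells, and Gzma without Cd163l1 in 618, with median depths of 2112 and 2553.5 UMIs. Cells with Cd163l1 had 904 CPM of Cxcr6 against 123 CPM (7.34-fold, 6.38 to 8.47), 314 CPM of Ccr2 against 29.9 CPM (10.5-fold, 7.96 to 14.1) and 28.3 CPM of Ccr6 against 3.61 CPM (7.83-fold, 3.45 to 20.8). Ccr9 was 2.87-fold lower (2.31 to 3.604), at 77.2 against 222 CPM, so 4 receptors were called, beside 12.3% of all genes tested. Ccr7, at 71.1 and 139 CPM, was 1.95-fold lower (1.54 to 2.50), under the 2-fold limit, and passed it after thinning, where the Ccr6 call ended at a ratio of 7.67, with fewer counts. Thinned shares were 33.5% and 5.99% for Cxcr6, 16.3% and 1.94% for Ccr2, 3.72% and 10.8% for Ccr9, and 2.48% and 7.28% for Ccr7.

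Cells with UMIs of both genes (317, a gate added after the data were seen) lay between, with Cxcr6 at 428 CPM, Ccr2 at 151 CPM and Ccr9 at 182 CPM. They gave 3 calls against cells with neither, Cxcr6 and Ccr2 higher and Ccr7 lower, beside 2.93% of genes. The 1018 cells with neither had Cxcr6 at 199 CPM and the most Ccr7, 192 CPM (174 to 211). Compared with these, cells with Cd163l1 alone were higher in Cxcr6, Ccr2 and Ccr6 and lower in Ccr7, Ccr9, Ccr10 and Cxcr3, 7 calls beside 8.83% of genes, of which those of Ccr10 and Cxcr3 ended after thinning at ratios that moved little, from 0.458 to 0.451 and from 0.336 to 0.361. Gzma cells gave no receptor call against cells with neither, beside 1.18% of genes. In the other tissues the Cd163l1 split changed little: in lymph node (1217 cells with, 241 without) no receptor was called, beside 3.47% of genes, and in skin Vγ6 (385 and 302) only Ccr7 was, 2.65-fold lower (1.04 to 7.29) from 8 and 14 UMIs, beside 3.4% of genes, and not after thinning. In the pooled library, the 1346 cells with a Cd163l1 UMI had Cxcr6 2.22-fold (2.07 to 2.39), Ccr2 2.298-fold (2.01 to 2.64) and Ccr6 2.50-fold (1.44 to 4.66) higher than the 660 without. Ccr9 was 9.36-fold (6.45 to 13.9), Ccr7 5.21-fold (3.71 to 7.40) and Ccr8 3.43-fold (1.81 to 6.63) lower there, 6 calls beside 7.92% of genes, and thinning ended those of Cxcr6, at 1.95-fold, Ccr2, at 1.92-fold, and Ccr8, at a ratio of 0.537.

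**Figure D4:**
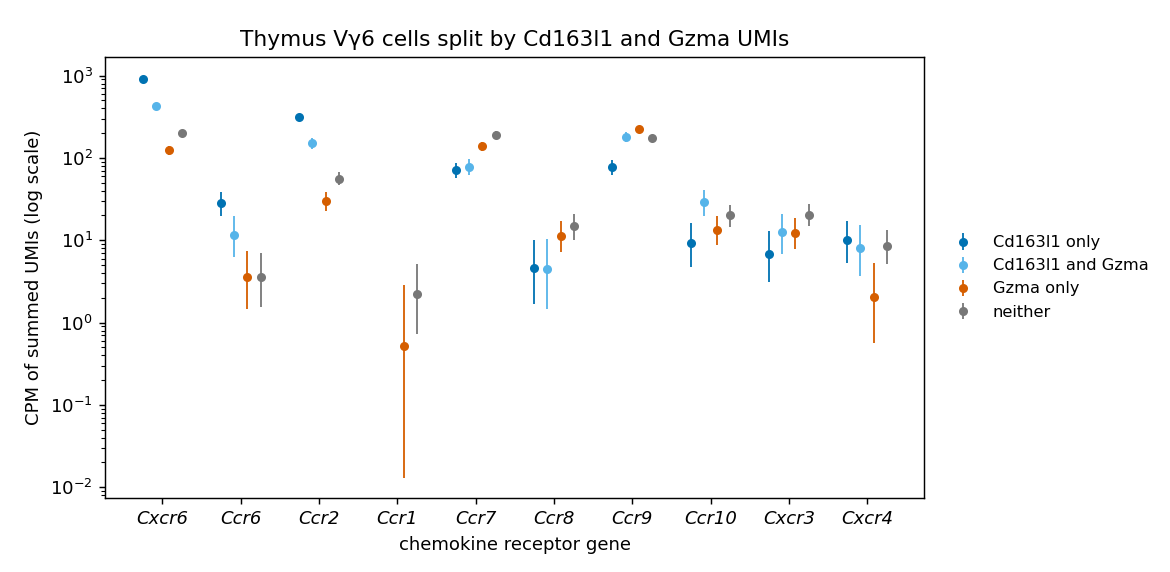
CPM of each receptor on a log axis in thymus Vγ6 cells with UMIs of Cd163l1 only (564 cells), of both genes (317), of Gzma only (618) and of neither (1018), with exact 95% Poisson intervals; gates with 0 UMIs, which occur for Ccr1, are not drawn. Cxcr6, Ccr6 and Ccr2 descend from Cd163l1 only to Gzma only, and Ccr9 ascends.

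Restricting every library to cells with a Cd163l1 UMI left the thymus different but closer. Cxcr6 was then 2.94-fold (2.78 to 3.10), Ccr6 3.20-fold (2.36 to 4.43), Ccr2 2.23-fold (2.04 to 2.46) and Ccr10 3.36-fold (2.43 to 4.76) lower in thymus than in lymph node, and Ccr9 31.4-fold (18.7 to 56.8) and Ccr7 4.24-fold (3.18 to 5.71) higher. Between skin Vγ6 and thymus the calls of Ccr6, at 1.82 (1.001 to 3.18), and Ccr2, at 1.77 (1.499 to 2.08), ended, and Cxcr6 stayed 3.82-fold higher (3.55 to 4.12). Cells with the marker were 83.5% of the lymph node, 56.04% of the skin Vγ6, 35.0% of the thymus and 17.7% of the skin Vγ4 library.

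In lymph node, 326 cells (22.4%) held UMIs of at least 3 genes of the dendritic list, a split chosen after the data were seen. The list's transcripts there were the class II genes Cd74, H2-Aa, H2-Ab1 and H2-Eb1 and Cst3, while Flt3 had 1 UMI and Itgax, Clec9a and Cd209a had 0. Of these cells 98.5% had a Cd3 UMI, 86.5% a Cd163l1 UMI and 86.2% UMIs of at least 2 cycling genes, against 44.5% of the others, and their median depth was 4100.5 against 1604.5 UMIs. They held 70.7% of the Ccr7 and 70.3% of the Cxcr4 UMIs of the library, at 29.0 against 9.23 CPM (3.14-fold, 1.88 to 5.42) and 28.5 against 9.23 CPM (3.08-fold, 1.84 to 5.33). Cxcr6 was 2.03-fold lower there (1.93 to 2.13), at 1295 against 2626 CPM, and Ccr6 2.17-fold (1.66 to 2.86), at 41.0 against 89.0 CPM, so 4 receptors were called beside 8.64% of genes. None of the 4 was called after thinning, where Ccr7 was seen in 0.307% and 0.265% of cells and Cxcr6 in 56.4% and 74.5%. Ccr10 was alike, 64.6 and 59.6 CPM. With all cells of other-type markers left out, the skin Vγ6 over lymph node ratio of Ccr7 rose to 1.59 on the log2 scale and was called, that of Ccr6 reached -1.23 and was called, and that of Ccr1 lost its call at 0.85.

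Cell division went with some of these values. Dividing lymph node cells (785, with UMIs of at least 2 cycling genes) had Ccr6 at 52.0 against 133 CPM in the 273 without any (2.55-fold lower, 1.85 to 3.47) and Cxcr4 at 22.2 against 4.73 CPM (4.68-fold higher, 1.25 to 39.4, from 69 and 2 UMIs), 2 calls beside 14.5% of genes that both ended after thinning. Thinning added a lower call for Cxcr3, seen in 0% (up to 0.469%) of dividing and 1.10% (0.227 to 3.18) of resting cells. That call rests on few UMIs. Resting cells held 7 before thinning, and the thinned ratio of 0.209 was taken against 3 UMIs for the 0 in dividing cells. Before thinning Cxcr3 was under the limit of 20 CPM, at 5.14 against 16.6 CPM. Cxcr6 was 1.97-fold lower (1.86 to 2.09), just short of a call. In thymus, 837 dividing cells had Ccr2 2.10-fold lower (1.76 to 2.52) and Ccr10 2.35-fold higher (1.39 to 4.16) than 876 resting ones, 2 calls beside 6.32% of genes, of which that of Ccr2 held after thinning. Cxcr6 there was 1.88-fold lower (1.70 to 2.08). The direction was thus the same for Cxcr6 in both tissues, without a call in either. Dividing cells were deeper, at a median of 2707 against 1423 UMIs in lymph node and 3220 against 1859.5 in thymus.

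The authors' deposited table gives mean expression in 8 clusters of Vγ6 cells, named pLN_1, pLN_2, Skin and Thy_1 to Thy_5, as parts per 10000 of the table's genes. It gives no samples, SD or n. In the authors' deposited table Cxcr6 was 32.1 in pLN_1, 27.7 in Skin, 16.9 in pLN_2 and 13.1 in Thy_2, against 0.476 to 2.18 in the other 4 thymus clusters. Ccr2 followed the same 4 clusters there, at 7.08 in pLN_1, 5.48 in pLN_2, 4.65 in Thy_2 and 4.08 in Skin, with 0.0735 to 0.686 elsewhere. Ccr6 was 1.20 in pLN_1 and 0.411 to 0.452 in pLN_2, Skin and Thy_2, 0.0161 in Thy_1 and listed at 0 in Thy_3, Thy_4 and Thy_5. Among the thymus clusters, Thy_2 was thus nearest to the peripheral clusters in these 3 genes. In the authors' deposited table it differed from them in others, with Ccr10 at 0.0258, the lowest of the 8, and Ccr9 at 0.315 and Ccr7 at 0.237, above pLN_1, pLN_2 and Skin.

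The other thymus clusters divided the remaining receptors. In the authors' deposited table Ccr9 was highest in Thy_1 (2.78) and Thy_5 (1.85) and listed at 0 in Skin, and Ccr7 was 2.47 in Thy_1 and 1.13 in Thy_3 but 0.115 in Thy_5. Ccr7 and Ccr9 were therefore both high in Thy_1 and parted in Thy_5. Cxcr3 (0.829), Ccr10 (0.687) and Ccr8 (0.284) were highest in Thy_3, with Ccr10 also at 0.629 in pLN_1. Cxcr4 (0.511) and Ccr1 (0.288) were highest in Skin, and Cxcr4 was 0.261 in pLN_2 but 0.0264 in pLN_1. By the authors' deposited marker table, whose p-values are over cells, Ccr9 was detected in 38.3% of Thy_1 and 31.1% of Thy_5 cells, Ccr7 in 30.3% of Thy_1 and 3.8% of Thy_5 cells, and Cxcr3 in 13.5% of Thy_3 cells. The authors' deposited table of markers gives Cxcr6 in 83.9% of Thy_2 and 16.2% of Thy_1 cells.

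**Figure D5:**
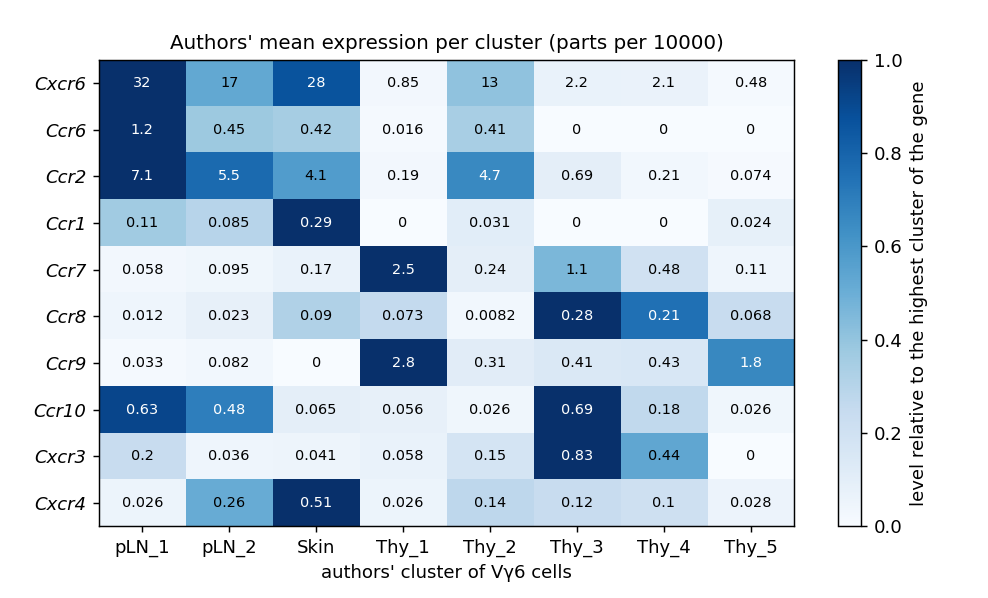
The authors' mean expression of each receptor in 8 Vγ6 clusters, printed as parts per 10000 in each cell and coloured relative to the highest cluster of that gene. Cxcr6, Ccr6 and Ccr2 are dark in pLN_1 and lighter in pLN_2, Skin and Thy_2, Ccr7 and Ccr9 are dark in Thy_1, Ccr8 and Cxcr3 in Thy_3, and Ccr10 in Thy_3 and pLN_1.

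Likeness between genes was taken as Pearson's r of the natural log of the authors' cluster means plus 0.1 over the 8 clusters, which share cells, scaling and clustering, so r is given as a description. Cxcr6 had r = 0.97 with Ccr2, 0.93 with Ccr6 and -0.93 with Ccr9, its neighbour on chromosome 9. Ccr7 and Ccr9 had r = 0.62. Among 4267 genes reaching 0.5 in a cluster, those most like Cxcr6 were S100a6 (0.99), Serpinb6a (0.98) and Trpv2 (0.98), and those most like Ccr2 were Serpinb6a (0.98), Cxcr6 (0.97) and Prelid2 (0.96). Abi3bp (0.99), Ncor1 (0.97) and Kcnk1 (0.97) were most like Ccr6. For Ccr9 they were P2ry14 (0.99), St8sia1 (0.98) and Kcnn4 (0.98), and for Ccr7 Gm8369 (0.93), Spata13 (0.91) and Phf3 (0.90). Tspan32, Cwc15 and Rpp25l were most like Ccr10 (0.90 to 0.87), Cd40lg, Fuca1 and Rpl38 most like Cxcr3 (0.92 to 0.91), and Pgk1, Stx11 and Antxr2 most like Cxcr4 (0.95 to 0.88). Ccr1 and Ccr8 stayed under 0.5 in every cluster and were not ranked.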

How the data were processed

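The deposited matrices hold raw UMI counts per gene and cell barcode, 1 matrix per library. Cell Ranger 2.0, Seurat 2.3 and the mm10 build are listed in the submitters' processing notes, without their roles. The authors' deposited table of cluster means is scaled to 10000 per column, and their deposited marker table gives natural log fold changes, fractions of cells with a gene and p-values over cells, which were used as deposited. How the clusters were made is not given in the sources used here.

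A barcode was kept if it had 200 or more genes and a mitochondrial share of UMIs no higher than 10%. That left 1178 cells for skin Vγ4 (1933221 UMIs), 687 for skin Vγ6 (793463 UMIs), 1458 for lymph node (4210564 UMIs), 2517 for thymus (6607432 UMIs) and 2006 for the pool (2960908 UMIs). Doublets were not removed. Sums of UMIs over a library's cells were divided by its total to give CPM, with exact 95% Poisson intervals. Shares of cells have exact Clopper-Pearson intervals, and ratios exact conditional binomial ones. A count of 0 was bounded by 3 counts per library. PCR copies are collapsed by UMI, and intervals cover counting error only. Ratios were computed for all 27998 genes, and percentages of genes called were taken over those reaching 20 CPM. List medians used a pseudocount of 1 CPM. Thinning drew 500 UMIs per cell (seed 11), leaving out 0 to 55 shallower cells per library. A cell was flagged as another type with UMIs of at least 3 markers of one list (2 for NK and ILC), whether or not it had a Cd3 UMI.

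The receptors, lists and tests were chosen with earlier results of these data known. All 10 receptors are named. Of the other lists, the 3 called genes with the largest ratio per comparison are named, except some that are not reported here, and genes of like pattern are the 3 with the highest r over the clusters. In the lists, 6 genes were not in the matrices. The call rule was tested on simulated counts. Alternatives covered TMM (edgeR 4.0.16) and median-of-ratios factors (DESeq2 1.42.0), a mean over cells, other filters on cells and CPM, and thinning. Others left out dividing cells or cells carrying markers of other types. Python 3.11.15, numpy 2.4.6, scipy 1.17.1, pandas 2.3.3, matplotlib 3.10.9 and R 4.3.3 were used. Proteins of the receptors are not shown, since none were used here.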

Additional observations from a re-analysis of the deposited data

Results flagged for a closer look

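The pooled Vγ6 library was in none of the 4 comparisons between libraries, because its cells cannot be assigned to a tissue, and it held transcripts of all 10 receptors above the limit of 3 UMIs. Cxcr6 was at 1891 CPM, Ccr2 at 542 CPM, Cxcr4 at 67.2 CPM, Ccr9 at 60.1 CPM, Ccr7 at 55.1 CPM, Ccr6 at 35.1 CPM, Ccr10 at 19.6 CPM, Cxcr3 at 17.9 CPM, Ccr8 at 14.9 CPM and Ccr1 at 7.43 CPM.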

How the results depend on the processing

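No paired analysis was possible because each group had 1 library. Of 424 receptor ratios under other settings, 381 kept the same outcome, many of them no call in either setting. A call was lost in 21 and gained in 21. One of the called ratios turned, Ccr1 in skin Vγ6 over lymph node, at -0.47 (log2) after thinning. The direction turned in 19 ratios, 18 of them not called, such as Cxcr6 in skin Vγ6 over lymph node under 4 settings and Cxcr4 (0.21 after thinning) and Cxcr3 (-0.27) in thymus over lymph node. Numbers of receptors called that moved over 1.5 times were these. For skin Vγ6 over lymph node, lower calls went from 1 to 2 with a mean over cells, with thinning and with no CPM minimum. They also went to 2 without cells carrying markers of other types, to 3 without dividing cells and to 0 at a minimum of 100 CPM. Higher calls there went from 2 to 1 in Cd163l1 cells and to 0 at 100 CPM. Lower calls for thymus over lymph node went from 4 to 2 at 100 CPM. For skin Vγ6 over thymus, higher calls went from 5 to 3 in Cd163l1 cells and 2 at 100 CPM, and lower calls from 2 to 4 with no minimum. For skin Vγ4 over skin Vγ6, lower calls went from 1 to 2 with a stricter cell filter, adding Cxcr6 (-1.10), and higher calls from 3 to 0 at 100 CPM. The higher minimum tests fewer genes; the other causes were not tested. The receptors' median log2 ratio for skin Vγ6 over lymph node turned from 0.31 to -0.069 with no minimum, and that of other chemokine receptors for skin Vγ4 over skin Vγ6 from 0.0057 to -0.0051 with a pseudocount of 10 CPM. Receptors under about 20 CPM rest on few UMIs, most of all in skin Vγ6, where 3 UMIs are 3.78 CPM.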
